A study of Mus musculus with 6 samples.

Results

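The nuclear genes for the subunits of the 5 oxidative phosphorylation complexes were followed in cultures of mouse primary microglia, macrophages that reside in the brain. Members were taken by symbol, as every row of the expression table that starts with Nduf followed by a subunit letter and number, that is named Sdha to Sdhd, or that starts with Uqcr, with Cox4 to Cox8, or with Atp5. This gave 84 of 24340 named genes, with 35 in complex I, 4 in complex II, 8 in complex III, 20 in complex IV and 17 in complex V. Ndufa4 and Ndufa4l2 were counted with complex IV, where the Ndufa4 protein sits. The symbols also caught Atp5s and Atp5sl, which are not core subunits of ATP synthase, and Cox7a2l, a factor for joining complexes III and IV. Subunits encoded in mitochondrial DNA were not analysed here.

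Cells came from brains of newborn (<3 d) C57BL/6 mice. The 3 vehicle libraries received DMSO for 1 h and then LPS, a component of the bacterial outer membrane, at 1 ug/ml for 5 h. The 3 C13 libraries received 10 uM C13, which the series title calls a MOK inhibitor (MOK is a protein kinase), in place of DMSO, followed by the same LPS. Every library had LPS, so the values show C13 against vehicle in LPS-exposed cells and nothing of LPS itself. The samples are labelled as biological replicates, but no culture, litter or animal is named, so the p-values speak only of how much these samples vary. Levels are in FPKM, fragments scaled to transcript length and library size, and in bulk RNA fewer cells of a type and less RNA per cell cannot be told apart.

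Complexes I to IV form the respiratory chain of the inner mitochondrial membrane. Complex I takes electrons from NADH and complex II from succinate, ubiquinone carries them to complex III, and cytochrome c carries them to complex IV, where oxygen is reduced. Complexes I, III and IV pump protons, and complex V uses the return of the protons to make ATP. Macrophages and microglia exposed to LPS are known for a shift of energy supply towards glycolysis.

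Genes of the respiratory chain are known to carry promoter sites for the factors NRF1, GABPA (an ETS family factor) and YY1, and promoter windows were searched for their letters. A 300-base window from 250 bases before to 50 bases after a gene's start, from RefSeq on GRCm38.p6, was matched for 69 of the 84 members. The stretches below are shown because they carry such letters in a highly expressed member of each complex. Each is the member with the highest level that holds the NRF1 letters upstream of its start or, for complex III, the ETS letters. Capitals mark the match, and all are read 5′ to 3′ on the minus strand, at chr16:37654510-37654599, chr9:50603879-50603968, chr4:116075071-116075121, chr5:115349071-115349160 and chr5:108434400-108434489 in the order given.
Ndufb4: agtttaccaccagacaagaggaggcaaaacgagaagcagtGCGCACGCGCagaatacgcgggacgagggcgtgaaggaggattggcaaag
Sdhd: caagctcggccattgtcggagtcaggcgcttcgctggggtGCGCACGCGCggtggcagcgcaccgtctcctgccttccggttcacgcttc
Uqcrh: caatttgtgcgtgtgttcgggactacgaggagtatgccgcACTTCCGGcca
Cox6a1: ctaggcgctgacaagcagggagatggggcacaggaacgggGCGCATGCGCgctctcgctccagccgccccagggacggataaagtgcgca
Atp5k: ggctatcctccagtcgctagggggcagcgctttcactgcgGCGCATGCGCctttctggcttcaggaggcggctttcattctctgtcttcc

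The NRF1 letters, GCGCA and GCGC with 1 free base between them on either strand, stood in the windows of 17 of 69 members (24.6%). They stood in 11.9% of the windows of 8980 genes averaging 1 FPKM or more and in 5.19% of 27025 genes with a window. By complex, 7 of 31 members of complex I held them, 2 of 3 of complex II, 1 of 5 of complex III, 1 of 14 of complex IV and 6 of 16 of complex V. The YY1 letters AAGATGGC stood in 11 members (15.9%), of which 7 belong to complex I and 4 to complex V, against 5.6% of the expressed genes. The ETS letters CCGGAAGT stood in 5 members (7.25%), against 9.77% of the expressed genes. The NRF1 pattern reads nearly the same on both strands, and matches of different patterns were counted separately, whether or not they overlapped. A match is a description of these letters in these windows and not a binding site, and no test was made of it.

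Of the 84 members 81 averaged 1 FPKM or more across libraries and were tested. Cox4i2, an isoform of lung and of low oxygen, had a mean just under that minimum, and Cox7b2 and Cox8c stood at the lowest listed value of 0.01 FPKM in every library. The tested subunits were abundant transcripts, with a median level of 91.8 FPKM against 10.3 FPKM over all 11412 genes tested. The median level was 70.0 FPKM in complex I, 72.0 in complex II, 162 in complex III, 161 in complex IV and 193 in complex V. Of the members 14 share their listed locus with 1 or more other rows of the table, Atp5d and Ndufs7 with 48 each. There the table alone does not separate reads of one gene from those of another.

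Across all genes, 1 library stood apart. Vehicle replicate 2 correlated with the rest at a median of 0.969, against 0.984 to 0.989 for each other library, and an FPKM total of 634451 against 504674 to 534757. It was the highest of the 6 libraries for 74 of 81 members (91.4%), against 38.5% of all genes tested, and the lowest for 2 members, against 35.8% of all genes. Its ratio to the mean of vehicle replicates 1 and 3 had a median of 1.45 over the members and of 1.02 over all genes. Results are given with and without it, as was set together with the gene set, when earlier results of these data were known. Estimated depth was 8900000 to 11560000 fragments per library. The summed microglia markers were 1031 to 1317 FPKM under vehicle, the highest in vehicle replicate 2, and 997 to 1045 FPKM under C13, with all 9 markers at 1 FPKM or more. Fibroblast, mural and endothelial markers summed to 3969 to 4273 FPKM under vehicle and 3734 to 4305 FPKM under C13, with 7 of 9 averaging 1 FPKM or more and Pecam1 and Cldn5 under 1 FPKM in every library. Astrocyte markers summed to 47.3 to 57.8 FPKM under vehicle and 63.6 to 115 FPKM under C13, with 7 of 7 at 1 FPKM or more.

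**Figure D1:**
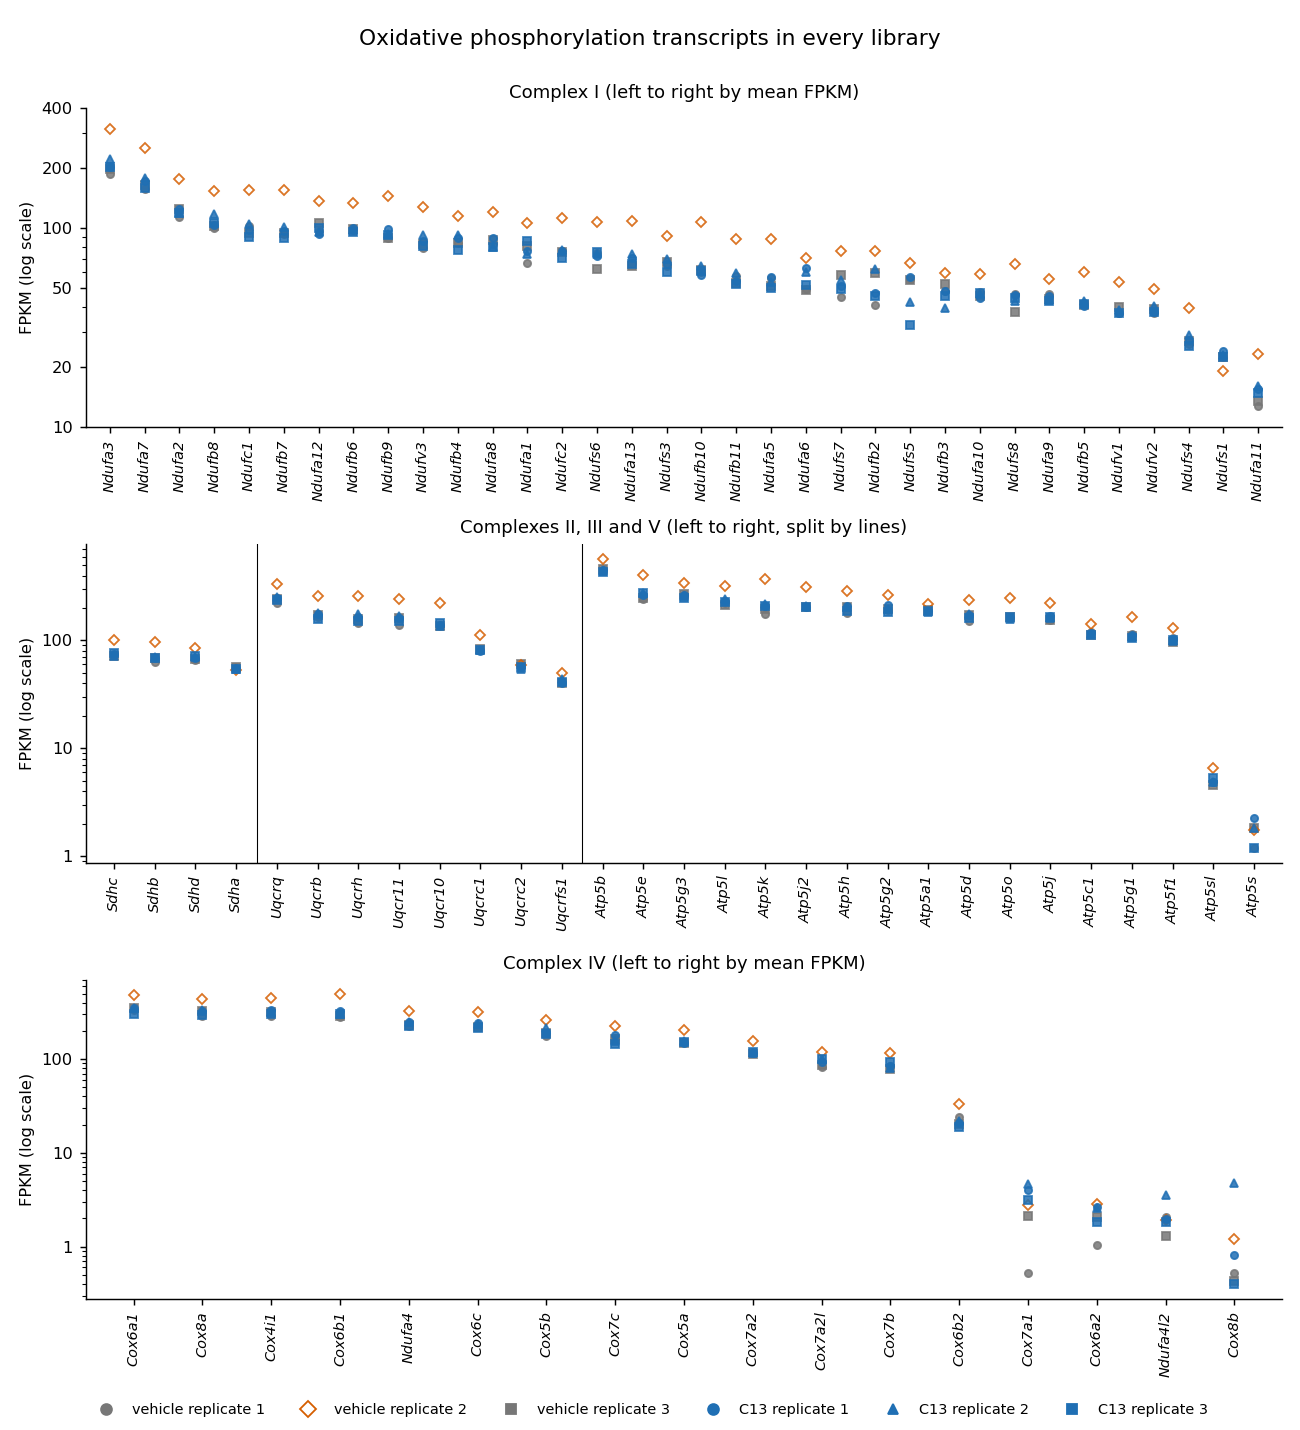
FPKM (log axis) of the tested members, 1 of which is not drawn, in each of the 6 libraries, by complex, with no error bars. Vehicle replicate 2 (open diamonds) lies above the other 5 libraries for 74 of 81 members. The low isoforms Cox7a1 and Cox8b spread widely between the other libraries.

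No subunit passed the test for a change with C13. With all 6 libraries 0 of 81 members passed an adjusted p of 0.05 in either direction (limma on log2(FPKM + 1), Benjamini-Hochberg over all genes), as did 0.0% of all genes. An unadjusted p under 0.05 was reached by 1 member, against 2.57% of all genes in the higher and 4.77% in the lower direction. The lowest adjusted p of a member was 0.606. Of the members 72 lay below 0 and 9 above, against 50.1% and 49.9% of all genes, and their median change was -0.13 on the log2(FPKM + 1) scale, against -0.0003 for all genes. Among the 76 members averaging 5 FPKM or more, 72 lay below 0 and 4 above. The split over all 81 members depended on the scaling. It was 36 above and 45 below after quantile normalization, and 44 above and 37 below as TPM, which moved the median of all genes to 0.13.

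Without vehicle replicate 2 the direction turned. The median change of the members was 0.04, against -0.0048 for all genes, with 57 members above 0 and 24 below, against 48.7% and 51.3% of all genes. It turned back after removal of a length and GC trend, with 31 above and 50 below, and was wider after quantile normalization, with 76 above and 5 below. Again 0 of 81 members passed in either direction, with a lowest adjusted p of 0.103, although 0.412% of all genes were then called higher and 1.07% lower. An unadjusted p under 0.05 was reached by 7 members, all higher with C13, namely Cox7a1, Cox7a2l, Atp5e, Atp5k, Ndufa11, Ndufa6 and Atp5j. For all genes that share was 6.23% in the higher and 10.6% in the lower direction.

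The intervals bound the size of what could be seen. With all 6 libraries the 95% interval of the change lay within 1.5-fold of FPKM + 1 in both directions for 59 of 81 members. Without vehicle replicate 2 it did so for 76 of 81. For low genes this bound is wider in FPKM itself. Of the 76 members averaging 5 FPKM or more, 58 and 75 lay within it. The median standard error was 0.16 with all libraries and 0.06 without that library. The library was left out with its values known, so intervals of the fit without it can be too narrow and p-values too small. With all libraries, the groups did not overlap for 1 member that was higher with C13 (1.23%, against 6.83% of all genes) and for 5 that were lower (6.17%, against 9.78%). Those 5 were Atp5a1, Atp5b, Atp5g3, Ndufb3 and Uqcrc2. Without vehicle replicate 2 there were 16 higher (19.8%, against 15.3%) and 5 lower (6.17%, against 20.5%).

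**Figure D2:**
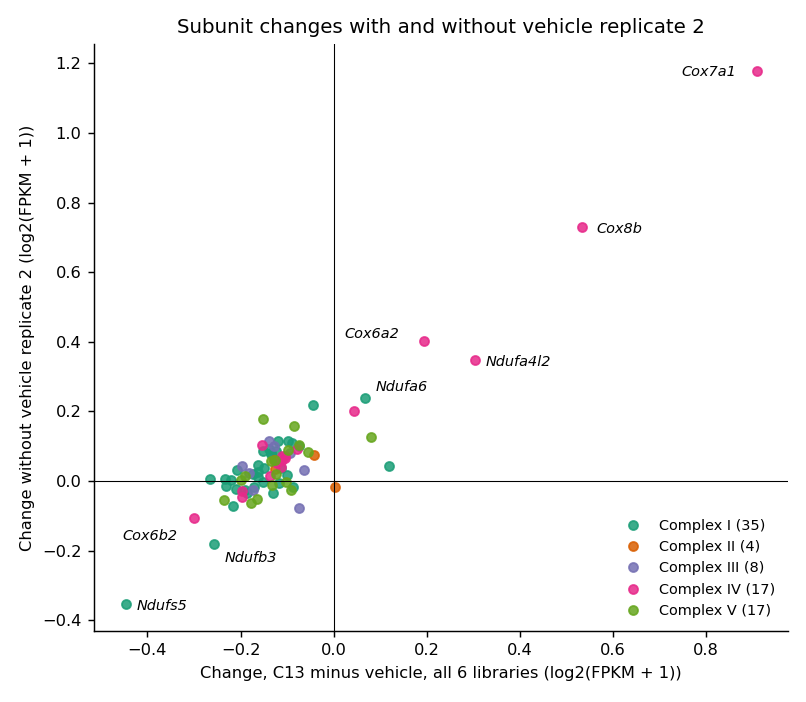
Change of each tested member with C13 with all 6 libraries (x axis) and without vehicle replicate 2 (y axis), both on the log2(FPKM + 1) scale, coloured by complex. Most points lie left of 0 on the x axis and above 0 on the y axis, and no member passed the test in either fit.

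Summed over the subunits of each complex, levels differed by library more than by group. The sum over all members was 9075, 13433 and 9373 FPKM in vehicle replicates 1 to 3 and 9638, 9662 and 9162 FPKM in C13 replicates 1 to 3. The group means were 10627 ± 2435 FPKM for vehicle and 9488 ± 282 for C13 (SD, n = 3), and the C13 values lay within the range of the vehicle values. The ratio of C13 to vehicle was 0.893 with all libraries and 1.03 against vehicle replicates 1 and 3. As a share of a library's FPKM total, the members took 1.72%, 2.12% and 1.75% with vehicle and 1.84%, 1.89% and 1.82% with C13.

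**Figure D3:**
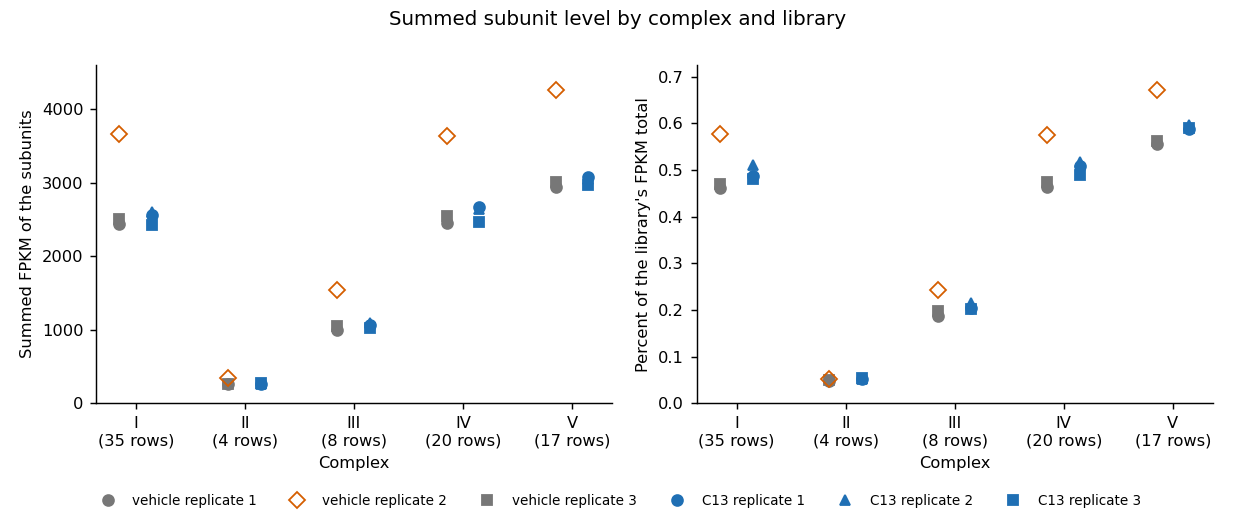
Summed FPKM of the subunits of each complex (left) and their percent of the library's FPKM total (right), each point 1 library. In complexes I, III, IV and V the vehicle replicate 2 sum lies far above the other libraries, and the other 5 differ little. In complex II its sum is 337.2 FPKM, against 255.5 to 271.5 FPKM in the others, while its percent lies within their range.

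Complex I had a median change of -0.15 with all libraries and 0.02 without vehicle replicate 2. Its most abundant transcript was Ndufa3, an accessory subunit, at 188, 315 and 199 FPKM under vehicle and 204, 222 and 203 FPKM under C13. Ndufa7, another accessory subunit, stood at 157, 253 and 165 FPKM under vehicle and 173, 179 and 159 FPKM under C13. In both genes vehicle replicate 2 was high and the other 5 libraries lay close together.

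Of 4 subunits picked from those that hold flavin or iron-sulfur clusters, 3 were highest in vehicle replicate 2 and 1 was not. Ndufv1, which binds NADH, was at 37.3, 53.7 and 40.3 FPKM under vehicle and 37.6, 38.7 and 37.2 FPKM under C13. Ndufs7 and Ndufs8, which carry iron-sulfur clusters, had changes of -0.17 and -0.14 with all libraries and of 0.02 and 0.08 without vehicle replicate 2. Ndufs1, the large iron-sulfur subunit, differed, at 22.5, 19.0 and 22.4 FPKM under vehicle and 24.0, 23.1 and 22.5 FPKM under C13. Here vehicle replicate 2 was the lowest library.

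The complex I members with the smallest p were all lower with C13 in the fit with all libraries. Ndufb3, an accessory subunit, stood at 48.3, 59.3 and 52.5 FPKM under vehicle and 48.2, 39.8 and 45.5 FPKM under C13, so that the groups just failed to overlap. Its change was -0.26 (SE 0.11, limma adjusted p = 0.684), and -0.18 without vehicle replicate 2 (adjusted p = 0.349). Ndufs5, a subunit on the intermembrane side, stood at 55.4, 67.0 and 54.6 FPKM under vehicle and 57.1, 42.3 and 32.4 FPKM under C13. The C13 libraries spread widely and 1 of them lay among the vehicle libraries, and the change was -0.45 (SE 0.20, adjusted p = 0.694). Ndufa12, an accessory subunit, was at -0.22 (adjusted p = 0.805), and at -0.07 without vehicle replicate 2. Without vehicle replicate 2, Ndufa11 and Ndufa6 had the smallest p, with changes of 0.22 and 0.24 and limma adjusted p-values of 0.165 and 0.209.

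Complex II, which is wholly nuclear-encoded, held a member with little spread between libraries. Sdha, the flavoprotein that oxidises succinate, stood at 54.0, 53.1 and 56.8 FPKM under vehicle and 55.4, 54.6 and 54.1 FPKM under C13, all 6 within a narrow range. The 95% interval of its change ran from -0.17 to 0.17. Sdhb, the iron-sulfur subunit, stood at 63.1, 97.8 and 69.0 FPKM under vehicle and 68.5, 69.8 and 68.1 FPKM under C13. The membrane anchors Sdhc and Sdhd had changes of -0.13 and -0.04, and of 0.04 and 0.07 without vehicle replicate 2.

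In complex III the small subunits were the most abundant and Uqcrc2 was the member whose groups did not overlap. Uqcrq stood at 225, 334 and 242 FPKM under vehicle and 248, 255 and 236 FPKM under C13, and Uqcrb and Uqcrh followed with 159 to 259 and 146 to 258 FPKM over the libraries. The core protein Uqcrc2 stood at 58.4, 58.8 and 60.0 FPKM under vehicle and 57.1, 54.2 and 56.9 FPKM under C13. Vehicle replicate 2 did not stand out for this gene, and every C13 library lay just below every vehicle library. The change was -0.07 (SE 0.07, limma adjusted p = 0.823), and -0.08 without vehicle replicate 2 (adjusted p = 0.475). Its partner Uqcrc1 was at -0.17 and -0.02 in the 2 fits, and the Rieske iron-sulfur protein Uqcrfs1 at -0.06 and 0.03.

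Complex IV holds pairs of tissue isoforms, and the widely expressed member of each pair was the abundant one. Cox6a1, Cox8a and Cox4i1 led with 333, 486 and 349, with 288, 440 and 327, and with 289, 443 and 318 FPKM in the vehicle libraries. In the C13 libraries they stood at 352, 348 and 305, at 325, 332 and 299, and at 335, 315 and 306 FPKM. The heart and muscle isoforms Cox6a2 and Cox8b ranged over 1.05 to 2.88 and 0.399 to 4.76 FPKM, and the highest Cox8b value was that of C13 replicate 2 alone. Cox6b2, an isoform known from testis, stood at 24.2, 33.6 and 20.4 FPKM under vehicle and 20.9, 22.0 and 18.8 FPKM under C13.

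Cox7a1, the heart and muscle isoform of subunit 7a, was the only member higher with C13 in every library pair across the groups. It stood at 0.519, 2.81 and 2.11 FPKM under vehicle and 4.05, 4.69 and 3.15 FPKM under C13, and 1 vehicle library was far below the others. The change was 0.91 (SE 0.33, limma unadjusted p = 0.0267, adjusted p = 0.606), and 1.18 without vehicle replicate 2 (adjusted p = 0.103). It was 0.52 without vehicle replicate 1, the library with the lowest value, and 0.41 with a pseudocount of 5. At the estimated depth these levels rest on 1.82 to 21.3 fragments per library. Cox7a2, the widely expressed isoform, stood at 117, 158 and 112 FPKM under vehicle and 118, 117 and 119 FPKM under C13, with a change of -0.11, and of 0.04 without vehicle replicate 2, where the groups did not overlap. Cox7a2l stood at 83.3, 119 and 87.0 FPKM under vehicle and 94.0, 100.2 and 100.2 FPKM under C13, between vehicle replicate 2 and the other vehicle libraries.

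Complex V held the most abundant transcript of the set. Atp5b, the catalytic beta subunit, stood at 449.7, 575 and 459.6 FPKM under vehicle and 447.7, 439 and 429.9 FPKM under C13. Every C13 library lay below every vehicle library, by little against vehicle replicate 1, and the change was -0.16 (SE 0.12, limma adjusted p = 0.821), and -0.05 without vehicle replicate 2. The alpha subunit Atp5a1 stood at 188, 217 and 191 FPKM under vehicle and 188, 185 and 186 FPKM under C13, with a change of -0.09, and of -0.03 without vehicle replicate 2. Atp5g3 and Atp5g1, which encode the c subunit of the rotor ring, were at -0.18 and -0.24, and at -0.06 and -0.05 without vehicle replicate 2.

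The short transcripts Atp5e and Atp5k turned direction with vehicle replicate 2. Atp5e, the epsilon subunit, stood at 241, 405 and 246 FPKM under vehicle and 266, 274 and 275 FPKM under C13. Atp5k, the e subunit of the membrane part, stood at 178, 373 and 195 FPKM under vehicle and 208, 217 and 208 FPKM under C13. In both genes the C13 libraries lay between vehicle replicate 2 and the other vehicle libraries. Their changes were -0.09 and -0.15 with all libraries and 0.16 and 0.18 without vehicle replicate 2, with limma adjusted p-values of 0.123 and 0.160 in the latter fit.

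The excess in vehicle replicate 2 was larger for shorter transcripts, in the subunits as in other genes. The members had a median transcript length of 732 nt, against 2787 nt for all genes tested, and 54 of 81 (66.7%) were under 1000 nt, against 8.04% of all genes. Among members under 600 nt the median ratio of vehicle replicate 2 to vehicle replicates 1 and 3 was 1.53 (27 genes), and for all genes of that length it was 1.49. For members of 1500 to 2500 nt it was 1.29 (12 genes), against 1.15 for all genes, and from 2500 nt on it was 0.959 over 3 members, against 0.862.

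Across the 81 members the difference of vehicle replicate 2 from vehicle replicates 1 and 3 on the log2(FPKM + 1) scale went with log10 length at Pearson's r = -0.64 and Spearman's rho = -0.59, and across 11349 genes at r = -0.57 and rho = -0.65. The size of this relation in the members depends on the transcript taken for each gene, a choice that was changed after values had been seen. With the longest principal transcript it was r = -0.54 and rho = -0.54 in the members, and with the longest transcript r = -0.34 and rho = -0.36, while over all genes rho was -0.67 and -0.65. The GC percent of the transcript went with the same difference at rho = 0.40 in the members and 0.48 over all genes. C13 replicates 1, 2 and 3, against vehicle replicates 1 and 3, went with length at rho = -0.40, -0.35 and -0.07 in the members. Over all genes these were -0.07, -0.25 and -0.03. These are descriptions across genes, which share the libraries and are not independent replicates. The part of transcript length or GC percent in the shift of the subunits was not tested.

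**Figure D4:**
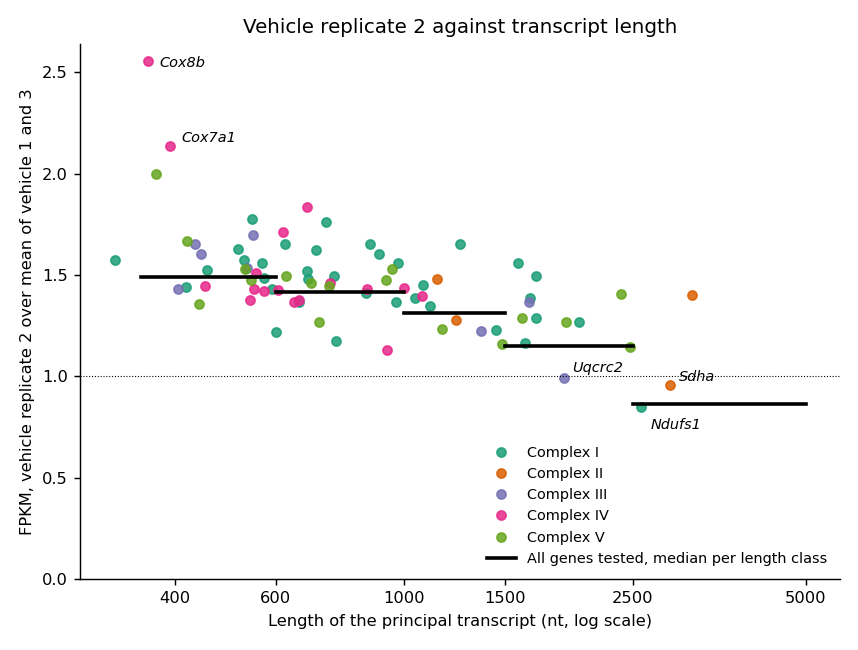
Ratio of FPKM in vehicle replicate 2 to the mean of vehicle replicates 1 and 3 against transcript length (log axis) for the 81 tested members, coloured by complex. Black lines give the median of all genes tested in each length class, from 1.49 under 600 nt to 0.862 from 2500 nt on.

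Other genes of the pathway were taken from lists of assembly factors, carriers and regulators. With all libraries 0 genes of these lists passed, as did 0 of all 11412 genes tested. Without vehicle replicate 2, a fit whose p-values can be too small, only Uqcc3 passed as higher. AA467197, from a list of subunits outside the symbol rule, passed as lower in that fit. Of all genes 0.412% were then called higher and 1.07% lower. Complex I assembly factors had a median change of -0.02 over 14 genes, complex IV assembly factors -0.10 over 19, and electron carriers with ubiquinone synthesis -0.12 over 18. Without vehicle replicate 2 these medians were 0.08, -0.01 and 0.01. Regulators of mitochondrial gene expression had medians of 0.05 and 0.01 over 8 genes, and the coactivators Ppargc1a and Ppargc1b were under the minimum level. The 4 assembly factors of complex II had medians of 0.12 and 0.27, the 5 of complex III -0.0034 and 0.13, the 4 of complex V 0.05 and 0.10, and the 4 nucleotide and phosphate carriers -0.12 and -0.04.

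The members of each list with the smallest p in the fit with all libraries are given, and none passed in it. Their change is given with all libraries and then without vehicle replicate 2, a fit that would rank some lists otherwise. In complex I assembly they were Ndufaf2 at -0.19 and -0.13 and Tmem126b at 0.15 and 0.18. In complex II assembly they were Sdhaf1 at 0.19 and 0.39 and Sdhaf4 at 0.09 and 0.15, and in complex III assembly Ttc19 at 0.12 and 0.11 beside Uqcc3. In complex IV assembly they were Cox20 at -0.47 and -0.19 and Cox18 at -0.21 and -0.18. Without vehicle replicate 2 the smallest p of that list belonged to Cox14 and Coa3, which were higher with C13. Cox14 was at 0.07 and 0.26 and Coa3 at 0.04 and 0.20, with limma adjusted p = 0.094 and 0.099 without vehicle replicate 2. In complex V assembly they were Tmem70 at 0.16 and 0.18 and Fmc1, listed as 1110001J03Rik, at -0.28 and -0.11. Among the carriers they were Coq3, of ubiquinone synthesis, at -0.22 and -0.23 beside Cycs, the ADP/ATP carrier Slc25a5 at -0.14 and -0.06, and the uncoupling protein Ucp2 at -0.17 and -0.08. Among the regulators they were Pprc1 at -0.12 and -0.08 and Polrmt, the mitochondrial RNA polymerase, at 0.11 and 0.15. The listed locus of Polrmt is shared with 48 other rows. The 7 subunits and partners that the symbol rule leaves out had medians of -0.15 and 0.01, with Cyc1, the cytochrome of complex III, at -0.22 and -0.06 beside AA467197.

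For Cycs, which encodes cytochrome c, every C13 library lay below every vehicle library, but the gene did not pass. It stood at 64.8, 76.5 and 63.6 FPKM under vehicle and 56.3, 52.0 and 53.3 FPKM under C13. The change was -0.33 (SE 0.10, limma adjusted p = 0.485), and -0.25 without vehicle replicate 2 (adjusted p = 0.0788). Uqcc3, an assembly factor of complex III, stood at 8.12, 16.0 and 8.01 FPKM under vehicle and 12.4, 12.2 and 11.8 FPKM under C13, so that vehicle replicate 2 lay above all C13 libraries. It rose without vehicle replicate 2, by 0.54 (SE 0.06, adjusted p = 0.0207), and was at 0.24 with all libraries (adjusted p = 0.823).

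A relative of a subunit, outside the symbol rule, lay lower with C13. AA467197, also named Nmes1, encodes a small protein related to Ndufa4 that is known to be induced in inflamed macrophages and to take the place of Ndufa4 in complex IV, and it was looked at with earlier results of these data known. It stood at 339.5, 463 and 359 FPKM under vehicle and 232, 197 and 158 FPKM under C13. Every C13 library lay well below every vehicle library. The change was -0.98 (SE 0.17, limma unadjusted p = 0.000684, adjusted p = 0.217). Without vehicle replicate 2 it was -0.85 (SE 0.14, adjusted p = 0.0446), which passed in a fit whose p-values can be too small. The gene lies at chr2:122636986-122641191 and shares its listed locus with the microRNA gene Mir147.

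Ndufa4 itself did not pass, and its groups overlapped. It stood at 225, 329 and 231 FPKM under vehicle and 246, 247 and 226 FPKM under C13, with a change of -0.11 (SE 0.15, limma adjusted p = 0.860), and of 0.07 without vehicle replicate 2. The ratio of AA467197 to Ndufa4 in FPKM, in which a factor common to both genes within a library cancels, was 1.51, 1.40 and 1.56 with vehicle and 0.944, 0.799 and 0.699 with C13. Vehicle replicate 2 lay with the other vehicle libraries in this ratio. No test was made on it, since the pair was chosen with results known. Ndufa4l2, a relative known from cells in low oxygen, was at 1.29 to 3.60 FPKM in all libraries with a change of 0.30 (adjusted p = 0.821). The summed astrocyte markers given above were higher in every C13 library than in every vehicle library, and their part in these differences was not tested.

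**Figure D5:**
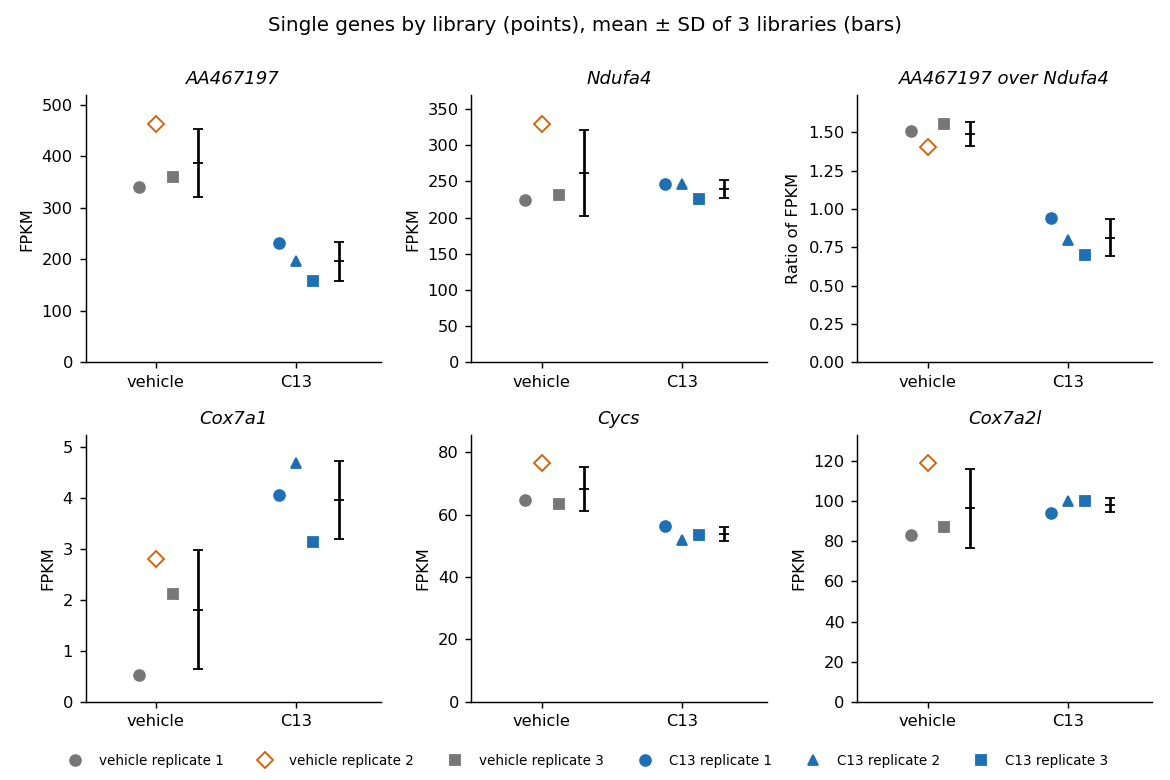
FPKM of 5 genes and the ratio of AA467197 to Ndufa4 in each library (points), with mean ± SD of 3 libraries per group (bars). AA467197 runs from 158 to 232 FPKM under C13 and from 339.5 to 463 FPKM under vehicle, while Ndufa4 overlaps between the groups.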

How the data were processed

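Poly-A RNA libraries were made with a stranded kit, per the labels' protocols. TopHat2 2.1.0, Cufflinks and mm10 are named in the submitters' processing notes, but for the annotation, the Cufflinks version and strand use the entry is: not given in the sources used here. In the deposited table the authors give FPKM per gene and library. FPKM scales fragments by transcript length and library size, so values are relative to the other genes of a library. Read totals are not in the table, and depth was estimated from the smallest step above the lowest value. One line of the table had been emptied and was left out.

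On log2(FPKM + 1) values, the 11412 genes averaging 1 FPKM or more were kept, and C13 was compared with vehicle by limma 3.58.1 in R 4.3.3 (intensity trend, two-sided, Benjamini-Hochberg over all genes tested, threshold 0.05), with all 6 libraries and without vehicle replicate 2. A change is C13 minus vehicle on that scale and understates low genes. The fit was tested on simulated data with independent noise in each gene. No shift of a whole library was simulated, so that test does not speak to a shift like that of vehicle replicate 2. Members, gene lists and the fit without vehicle replicate 2 were chosen with earlier results of these data known. Named were, per complex, the 3 members with the highest mean and the 3 with the smallest p. Also named were a set of cofactor-bearing subunits, the isoform pairs, members whose groups did not overlap with all libraries and AA467197. Of each other list, the 2 with the smallest p with all libraries were named. For complex IV assembly the 2 without vehicle replicate 2 were added. One member that the rule takes is not reported here by name, but counts and medians include it. Transcript length is that of the APPRIS principal transcript of lower median length in GENCODE mouse release M21. The rule for the transcript was changed after values had been seen, from the longest transcript to the longest principal and then to this one, so all are reported. Gene positions are from the same release on GRCm38. Alternatives were pseudocounts, filters, scalings, weights, replicate blocks and leaving out each library.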

Additional observations from a re-analysis of the deposited data

How the results depend on the processing

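The absence of called subunits held under every alternative to the fit with all 6 libraries, leaving out each library included, and without vehicle replicate 2 under the pseudocounts, filters, TPM, length and GC trends, array weights, no intensity trend and leaving out each C13 library, while quantile normalization called 1 (Cox6b1). Blocks and a second vehicle library left out were not run in that fit. Genes called over the whole table numbered 0 in the fit as reported, 7 with quantile normalization, 2 with TPM, 63 after removal of a length and GC trend, 42 with array weights (whose estimation gave a convergence warning), 1 without the intensity trend, 8 with the replicate block by description number, and 0 to 169 on leaving out each library, the 169 without vehicle replicate 2. The length and GC count depends on the transcript taken for each gene, a choice changed after the data had been seen, with 57 calls for the longest principal and 32 for the longest transcript.

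The sign of the subunit median depends on the scaling as well. With all libraries it was -0.13 as reported, -0.01 with quantile normalization, -0.06 after the length and GC trend and 0.01 with array weights (45 above 0 and 36 below). With the block by description number it was 0.03 (54 above and 27 below). That block keeps the 4 libraries whose descriptions share the number 3 or 5 across groups, so vehicle replicate 2 is not in it. TPM moved the all-gene median to 0.13, above the 0.01 of the subunits. Without vehicle replicate 2 the subunit median of 0.04 became 0.09 with quantile normalization and 0.09 with TPM (0.04 for all genes). After the length and GC trend it was -0.02, and -0.015 or -0.0017 with the longest principal or longest transcript. The cause was not tested.

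Atp5e was at 0.0944 with quantile normalization, 0.0501 with TPM, 0.12 with array weights, 0.17 with the description block, and -0.21 to 0.16 on leaving out each library. Ndufa11 was at 0.0885 with TPM, 0.0287 after the length and GC trend (0.0287 with the longest principal and 0.0536 with the longest transcript), 0.18 with array weights, 0.21 with the description block, and -0.20 to 0.22 on leaving out each library. Sdhc was at 0.0092 with TPM, 0.0082 with array weights, 0.0354 with the description block, and -0.21 to 0.035 on leaving out each library. Sdhd was at 0.0744 with quantile normalization, 0.0708 with array weights, 0.0929 with TPM, 0.0901 with the description block, 0.0232 after the length and GC trend (0.0351 with the longest principal and 0.0411 with the longest transcript), and -0.11 to 0.0744 on leaving out each library. Uqcrc2 was at 0.0226 with quantile normalization and 0.059 with TPM. Cox7a1 ran from 0.41 to 1.34 over the alternatives and passed in none of them. The adjusted p of AA467197 ran from 0.0322 to 0.991 over the alternatives, and its change from -1.12 to -0.82.

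The replicate numbers of the titles were not taken as pairs. Same-numbered libraries had deviations correlated at 0.0886, 0.129 and 0.0978, and each library correlated best with its own number, a hint from the data only. With the replicate block by title number 0 genes and 0 subunits were called, with a subunit median of -0.13. Depth limits Cox7a1, Cox8b, Cox6a2 and Ndufa4l2, which rest on few fragments.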
